A study of Rattus norvegicus with 32 samples.

Results

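The transcripts described here encode beta-catenin and the core of the canonical Wnt pathway: the receptors Fzd1 and Lrp6, the adaptor Dvl1, the destruction complex components Apc, Axin1, Axin2 and Gsk3b, beta-catenin itself (Ctnnb1), and the nuclear partners Lef1 and Tcf7l2. Members were the array probes that carry 1 of these 10 gene names. Of the 10 names, 9 were found among the 26583 gene names of the array, with 12 probes in all. No probe carries the name Tcf7l2. A probe listed as LOC679869 belongs to the gene that RefSeq (GRCr8) calls Tcf7l2, and it is given separately because it lies outside the rule. The set was selected on measured values of these data. It was proposed because Ctnnb1 had the lowest log2 fold change in an earlier ranking of Ang II+Los against Ang II at 3 h. That ranking was not repeated here, and Ctnnb1 is not the lowest of all genes tested. In replicates 1 to 4, Otud1 was at -2.30, -5.38, 0.06 and -0.29, beside -2.12, -4.75, -0.37 and -0.04 for Ctnnb1. Because of this choice, values of that comparison are descriptions without a test, for every member, and so are all 3 h values of Ctnnb1.

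C6 is a rat glioma cell line of astrocytic type, grown here to confluence. Control cells received nothing, and a second group received Ang II, the peptide hormone angiotensin II, at 100 nM. The remaining groups were held for 30 min in Losartan (Los, an antagonist of the AT1 receptor) or PD123319 (an antagonist of the AT2 receptor), both at 10 µM, before the same dose of Ang II. At each of 3 h and 6 h every group had 4 replicates, with 1 single-dye array per sample and 32 arrays in all. No group received an antagonist without Ang II. The study asked for the response through both receptors by Ang II x Control, here the Ang II contrast, for the part of AT1 by Ang II+Los x Ang II, here the Losartan contrast, and for that of AT2 by Ang II+PD123319 x Ang II, here the PD123319 contrast. Every slide held 1 array of each group in the same position, so position and treatment cannot be told apart.

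Beta-catenin is both an adherens junction protein and the transcriptional co-activator of the canonical Wnt pathway. In resting cells a complex assembled on Axin and APC presents it to GSK3 beta, whose phosphorylation marks it for degradation. Binding of a Wnt ligand to a Frizzled receptor and LRP6 recruits Dishevelled and Axin to the membrane, beta-catenin accumulates, and in the nucleus it acts with LEF1 and TCF proteins. Much of this control acts on protein, which an mRNA array does not measure. The pathway is active in many gliomas, where beta-catenin has been linked to proliferation and invasion.

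Probes of 3 members of the destruction complex are shown first, since each is read by a single probe. They are sequences of the array design, 5′ to 3′ on the sense strand, with positions on rn4 as given in the file headers. They are shown because Apc, Axin2 and Gsk3b shared part of the pattern of Ctnnb1, itself read by 1 probe, at 3 h.
Apc: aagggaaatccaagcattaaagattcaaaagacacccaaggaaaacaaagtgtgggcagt
Axin2: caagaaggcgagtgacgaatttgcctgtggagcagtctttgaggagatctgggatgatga
Gsk3b: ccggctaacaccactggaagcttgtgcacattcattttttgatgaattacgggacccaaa

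The Apc probe lies at chr18:26789919-26789978, the Axin2 probe at chr10:98321105-98321164 both on the plus strand, and the Gsk3b probe at chr11:64302294-64302353 on the minus strand. On the plus strand the Axin1 probe lies at chr10:15462344-15462403, the Dvl1 probe at chr5:172717433-172717492, the Fzd1 probe at chr4:25998371-25998430 and the probe listed as LOC679869 at chr1:262226651-262226710. The Lrp6 probes lie on the minus strand at chr4:171337902-171337961 and chr4:171337138-171337197. An annotation of rn4 was not used here, so exons and UTRs are not assigned. The Gsk3b and Dvl1 probes are each printed 10 times on an array and the other 10 member probes once. Lef1 has 3 probes and Lrp6 has 2. Lef1 probes 1 and 3 overlap by 52 bases at chr2:228659738-228659789 and differ at 4 of them. Their shared windows are shown because the probes are not independent readings, and capitals mark the bases that differ.
Lef1 probe 1: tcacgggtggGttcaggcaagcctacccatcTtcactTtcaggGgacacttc
Lef1 probe 3: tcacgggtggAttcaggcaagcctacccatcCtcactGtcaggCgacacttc

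Counted from 1 at the 5′ end of the window, with the base of probe 1 first, the differences are G11A, T32C, T38G and G44C. All 12 member probes were well above background on all 32 arrays, none was saturated, and all members with a probe passed the filter on dim probes at both times.

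Signals are given as log2 of the normalized array signal, with 13627 genes tested at 3 h and 16444 at 6 h. The fits were made in limma, and the slide, given by the replicate number, entered as a block. A gene is called past the limits at an unadjusted p under 0.05 with a fold change above 1.2 or below 0.8. Adjusted p-values are those of Benjamini and Hochberg over all genes tested. The share of spots well above background ran from 55.9% to 64.7% over the arrays of 3 h and from 64.2% to 79.8% over those of 6 h, with signal limits that differ between the times. The labels do not say whether replicates were separate cultures, so the p-values measure the spread between these samples, which may be technical. Of 8 markers listed for C6 cells, S100b, Vim, Nes, Cspg4 and Cd44 were well above background on all 32 arrays. Gfap was so on 0 of 16 arrays at 3 h and 2 of 16 at 6 h, and Slc1a3 and Olig2 on 0. Of the other cell types, Ptprc, Pecam1 and Tie1 were on 0 arrays, while 3 of 4 neuronal, 1 of 4 oligodendrocyte, 3 of 5 leukocyte and 3 of 4 fibroblast and mural cell markers with a probe were on all 32.

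Ctnnb1 at 3 h stood at 10.30, 9.77, 9.10 and 9.32 in Control, in the order of replicates 1 to 4. It was 10.53, 10.33, 9.48 and 9.29 in Ang II. In Ang II+Los it was 8.41, 5.58, 9.11 and 9.26. In Ang II+PD123319 it was 10.77, 10.41, 9.55 and 9.44. The low values are those of Ang II+Los replicates 1 and 2, and the values of replicates 3 and 4 lie within the range of the other groups. In the same order, the group means were 9.62 ± 0.53, 9.91 ± 0.61, 8.09 ± 1.71 and 10.04 ± 0.65 (SD, n = 4). In bulk RNA, fewer cells with a transcript and less of it per cell cannot be told apart.

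**Figure D1:**
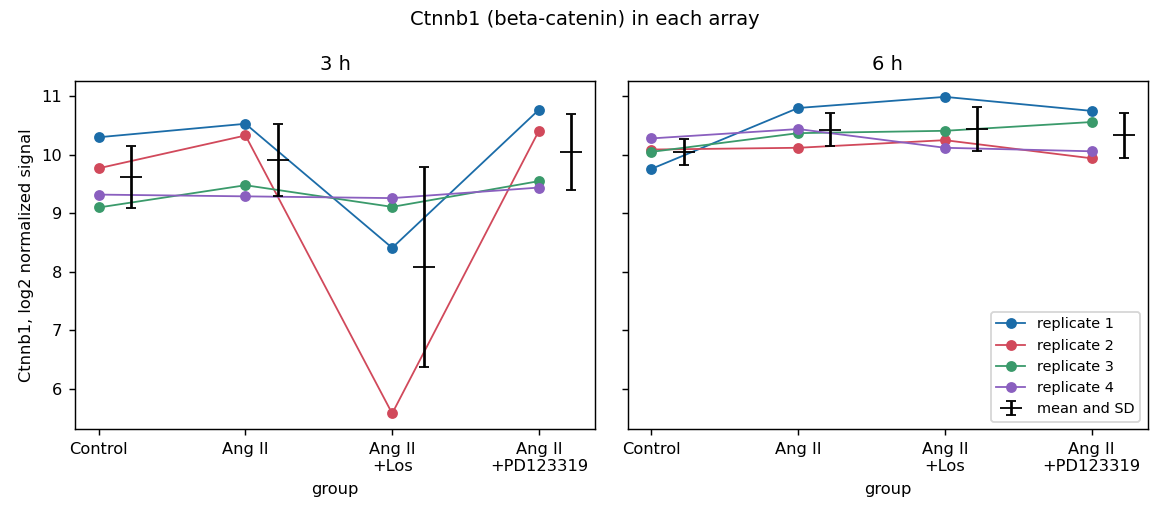
Log2 normalized signal of Ctnnb1 on each array by group, at 3 h and 6 h, with a line for each slide and the mean and SD of 4 arrays beside the points. The Ang II+Los arrays of replicates 1 and 2 at 3 h lie at 8.41 and 5.58, and the other 14 arrays of that time between 9.10 and 10.77.

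Within slides, the Losartan contrast at 3 h was -2.12, -4.75, -0.37 and -0.04 in replicates 1 to 4. The fitted log2 fold change was -1.82 ± 0.64 (SE), which is 0.283-fold. Replicates 1 and 2 were scanned together and averaged -3.44, and replicates 3 and 4, scanned together at another time, averaged -0.20. Without replicate 2 the fitted value was -0.84. The same 2 arrays gave low values in Ang II+Los x Control, at -1.89, -4.19, 0.01 and -0.06, and Ang II+Los x Ang II+PD123319, at -2.36, -4.83, -0.44 and -0.18. Before normalization between arrays, the Ctnnb1 spot of Ang II+Los replicate 2 gave a signal of 53.5 and that of Ang II on the same slide 2750. In replicate 1 these signals were 648 and 1980, in replicate 3 they were 321 and 599, and in replicate 4 they were 555 and 602. The table of log2 values deposited beside the scanner files leaves this probe blank on 28 of 32 arrays, all 16 of 3 h among them. In the scanner files its spot carries no outlier flag on any array, and the reason for the blanks is not given in the sources used here. The other members have a deposited value on all 32 arrays, apart from Lef1 probe 3 with 20 and Lrp6 probe 2 with 31.

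Many other genes were low on the same 2 arrays. The SD of Ang II+Los minus Ang II over all genes was 0.55 and 0.88 on the log2 scale in replicates 1 and 2, and 0.22 and 0.32 in replicates 3 and 4. Differences below -2 were found for 146 genes in replicate 1 and 422 in replicate 2, and for 0 genes in replicates 3 and 4. Differences above 2 were found for 3 and 11 genes in replicates 1 and 2. Ctnnb1 was near the lower end in replicates 1 and 2, where 101 and 27 genes had a value as low or lower. In replicate 3 there were 402 such genes, and in replicate 4, 6522.

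**Figure D2:**
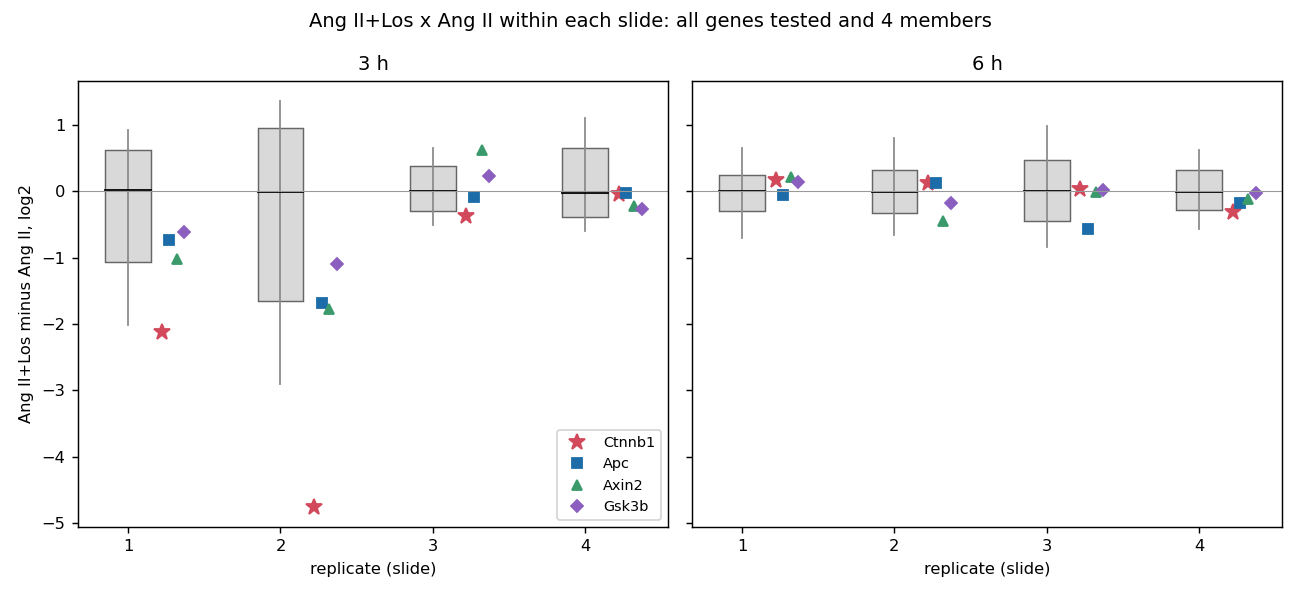
Ang II+Los minus Ang II on the log2 scale within each slide, at 3 h and 6 h. Boxes run from the 5th to the 95th percentile of all genes tested with the median as a line, thin lines leave out the outermost 1% at each end, and symbols mark Ctnnb1, Apc, Axin2 and Gsk3b. At 3 h the distributions of replicates 1 and 2 are wide, and Ctnnb1 lies below the lowest 1% of both, while Gsk3b lies within the box of both.

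A measure of RNA quality was added after seeing the data. For 823 transcripts at 3 h with probes over 500 bases apart on the genome, the change at the most upstream probe was set against that at the most downstream. The median of this difference in the Losartan contrast was -0.07, -0.53, -0.05 and 0.01 in replicates 1 to 4. In replicate 2, 75.5% of the transcripts had the lower value upstream. In the Ang II contrast and the PD123319 contrast at 3 h the medians lay between -0.05 and 0.13, and at 6 h all of them lay between -0.08 and 0.16. In replicates 1, 3 and 4 of the Losartan contrast at 3 h, 56.3%, 59.5% and 48.4% of the transcripts had the lower value upstream. The part of RNA quality, slide or scan in the Ctnnb1 values was not tested.

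**Figure D3:**
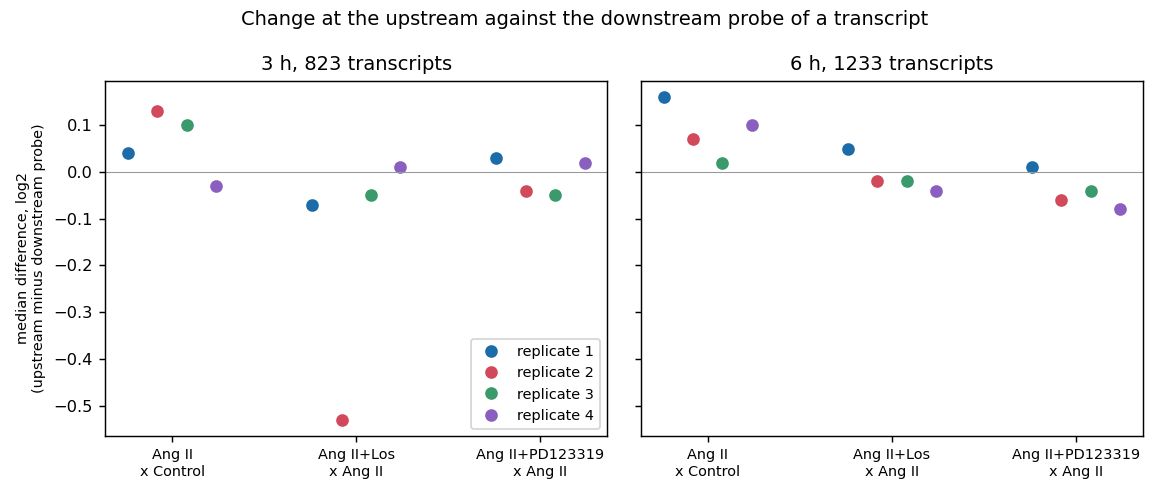
Median over transcripts of the log2 difference at the upstream probe minus that at the downstream probe, for each slide of the 3 comparisons with 823 transcripts at 3 h and 1233 at 6 h. Replicate 2 of the Losartan contrast at 3 h lies at -0.53 and the other points between -0.08 and 0.16.

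At 6 h Ctnnb1 was 9.76, 10.09, 10.05 and 10.28 in Control and 10.80, 10.12, 10.37 and 10.44 in Ang II. It was 10.99, 10.25, 10.41 and 10.12 in Ang II+Los, and 10.75, 9.94, 10.56 and 10.06 in Ang II+PD123319. The lowest array is a Control and the highest an Ang II+Los array, both of replicate 1, and the groups overlap. In order of the means, Control stood at 10.05, Ang II+PD123319 at 10.33, Ang II at 10.43 and Ang II+Los at 10.44, and none of the 6 differences between groups was past the limits. The Ang II contrast was 0.39 ± 0.19 (limma, adjusted p = 0.256), and by slide 1.05, 0.03, 0.32 and 0.16. The fold was 1.31, and the difference was above 0 in 4 of 4 slides and by far the greatest in replicate 1. The Losartan contrast was 0.01 with a 95% interval of -0.40 to 0.42, and the PD123319 contrast was -0.11 with an interval of -0.52 to 0.31. The 6 h arrays took no part in the choice of Ctnnb1, and the fall seen on 2 arrays at 3 h had no counterpart on the 4 Ang II+Los arrays of 6 h.

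Of the destruction complex, Apc, the large scaffold that carries beta-catenin in the complex, was 4.69, 5.40, 5.15 and 5.27 in Control at 3 h. It was 4.99, 5.75, 5.44 and 5.53 in Ang II. In Ang II+Los it was 4.26, 4.07, 5.35 and 5.50, and in Ang II+PD123319 5.00, 5.81, 5.25 and 5.23. The lowest arrays were again Ang II+Los replicates 1 and 2. Apc was dim, though well above background on all arrays. In replicate 2 its signal before normalization was 13.7 in Ang II+Los and 115 in Ang II, so the size of its fall there is uncertain. The Losartan contrast was -0.73, -1.68, -0.08 and -0.03 within slides, with a fitted value of -0.63 ± 0.26.

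In the Ang II contrast at 3 h Apc was higher by 0.29, 0.35, 0.29 and 0.26, the narrowest range of slides among the members in that comparison. The fit over all 16 arrays gave 0.30 ± 0.26 (limma, adjusted p = 0.617), with a spread that includes the low Ang II+Los arrays. Fitted to the 8 arrays of the comparison alone, the same 0.30 had an unadjusted p of 0.0214 by limma, and with replicates 3 and 4 alone it was 0.28. In that fit to 8 arrays 11.8% of all genes were past the limits, and 0 had an adjusted p under 0.05. The fold of Apc was 1.23. At 6 h the difference was 0.94, 0.02, 0.49 and 0.18, or 0.41 ± 0.19 (adjusted p = 0.248). The Control array of replicate 1 was low there, at 4.95 against 5.97 to 6.11 in the other 3.

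Gsk3b, the kinase that phosphorylates beta-catenin, was 9.44, 9.27, 9.53 and 9.67 in Control at 3 h, and 9.21, 9.19, 9.45 and 9.97 in Ang II. It was 8.60, 8.10, 9.68 and 9.71 in Ang II+Los. The 2 lowest of these are again Ang II+Los replicates 1 and 2. In Ang II+PD123319 it was 9.31, 9.32, 9.46 and 9.80. The Losartan contrast was -0.43 ± 0.21. Ang II+Los x Control was -0.45 ± 0.21 (limma, adjusted p = 0.228) and past the limits. It was not past them without replicate 1, at -0.33, or without replicate 2, at -0.22, and with replicates 3 and 4 alone the value was 0.09. At 6 h Gsk3b was flat: its group means ran from 9.31 to 9.46, and the Ang II contrast was -0.11 with an interval of -0.26 to 0.04.

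Axin2, a scaffold whose own gene is a classical target of the pathway, was 6.16, 6.36, 6.65 and 7.10 in Control at 3 h. It was 6.18, 7.02, 6.43 and 8.08 in Ang II, and 5.16, 5.25, 7.05 and 7.86 in Ang II+Los. It was 6.08, 6.38, 5.77 and 7.28 in Ang II+PD123319. The groups overlap widely, and only the Ang II+Los arrays of replicates 1 and 2 lie below all others. The PD123319 contrast was -0.11, -0.64, -0.66 and -0.79 within slides, lower in 4 of 4. The fitted value was -0.55 ± 0.36 (limma, adjusted p = 1), and on the 8 arrays alone the unadjusted p was 0.00418. In that fit to 8 arrays 4.84% of all genes were past the limits, and 0 had an adjusted p under 0.05. The same comparison at 6 h gave 0.19, -0.59, -0.48 and -0.43, or -0.33 ± 0.18 (adjusted p = 0.838). The Ang II contrast was 0.36 at both times, with standard errors of 0.36 and 0.18 and slides on both sides of 0. In Axin1, the constitutive scaffold, no such low arrays were seen. Its group means lay between 10.07 and 10.16 at 3 h and between 10.62 and 10.72 at 6 h, and its largest difference of any comparison was 0.10, in the Ang II contrast at 6 h, with an interval of -0.04 to 0.24.

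None of the 3 members upstream of the destruction complex was past the limits in any of the 6 comparisons at 3 h or 6 h. Fzd1, a Frizzled receptor for Wnt ligands, was 10.53, 10.43, 10.74 and 10.60 in Control at 6 h and 10.52, 10.49, 10.83 and 10.72 in Ang II. It was 10.32, 10.57, 10.78 and 10.65 in Ang II+Los, and 10.55, 10.66, 11 and 10.94 in Ang II+PD123319. Within slides the Ang II+PD123319 array was the highest in every replicate. The PD123319 contrast was 0.15 ± 0.07 (adjusted p = 0.763) and Ang II+PD123319 x Control was 0.21 ± 0.07 (adjusted p = 0.103), higher in 4 of 4 slides. Both folds, 1.11 and 1.16, were under the limit of 1.2. At 3 h the Fzd1 differences of the 3 contrasts lay between -0.11 and 0.08.

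Lrp6, the coreceptor, at 3 h was 7.81, 7.79, 7.90 and 7.94 in Control, and 7.59, 7.27, 7.95 and 8.10 in Ang II+Los. Replicates 1 and 2 of Ang II+Los were the lowest of the 16 arrays here too, and the other 14 ran from 7.69 to 8.10. Its largest difference at 6 h was in Ang II+Los x Control, at -0.17 ± 0.07 (adjusted p = 0.193), with 4 of 4 slides between -0.24 and -0.11. Its 2 probes, 764 bases apart, did not move together at 3 h. In the Ang II contrast probe 1 gave -0.38 ± 0.24 and probe 2 gave 0.21 ± 0.17. Most of that gap came from replicate 2, with -0.88 for probe 1 and 0.81 for probe 2. Values for Lrp6 as a gene are means over probes that disagree in sign there. Dvl1, the Dishevelled adaptor that carries the signal from the receptors, had group means from 10.72 to 10.88 at 3 h and from 10.95 to 11.05 at 6 h. Its value in the PD123319 contrast at 3 h was -0.16 ± 0.12 (adjusted p = 1), with 4 of 4 slides between -0.26 and -0.01.

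Of the nuclear partners, Lef1, a DNA-binding factor that recruits beta-catenin, had group means from 6.74 to 6.96 at 3 h and from 7.75 to 7.86 at 6 h, less than the differences between slides. In the Losartan contrast at 3 h it was -0.30, -0.49, 0.05 and -0.10. In replicate 2 the overlapping probes 1 and 3 gave -0.86 and -0.59, and probe 2, which lies 8960 bases downstream of probe 1 on the genome, gave -0.02. In replicate 1 the order was the other way, at -0.27, -0.13 and -0.50.

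Tcf7l2, the other nuclear partner, was read by the probe listed as LOC679869 alone. At 3 h it was 8.91, 8.21, 7.96 and 8.35 in Control, 8.93, 9.53, 7.92 and 8.98 in Ang II, and 9.72, 9.70, 7.91 and 8.84 in Ang II+Los. It was 9.25, 9.09, 8.30 and 9 in Ang II+PD123319. The groups overlap, and it was not low in Ang II+Los replicates 1 and 2, where Ctnnb1 was. The Ang II contrast was 0.49 ± 0.22 (limma, adjusted p = 0.391), at 0.02, 1.33, -0.04 and 0.63. It was past the limits, but without replicate 2 it was 0.21 and without replicate 4 it was 0.44, and neither was. Ang II+Los x Control was 0.69 ± 0.22 (adjusted p = 0.178), at 0.82, 1.49, -0.04 and 0.49, and without replicate 2 it was 0.42 and no longer past the limits. Ang II+PD123319 x Control was 0.55 ± 0.22 (adjusted p = 0.629), higher in 4 of 4 slides at 0.34, 0.88, 0.34 and 0.65, and past the limits. It was not past them without replicate 4, at 0.52, with normexp, at 0.38, or without the block, at 0.55. The shares of all genes past the limits in these 3 comparisons were 11%, 20% and 6.1%, and the 3 share the Control arrays. At 6 h they gave 0.08, -0.04 and 0.21, each with a standard error of 0.17, and none was past the limits.

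**Figure D4:**
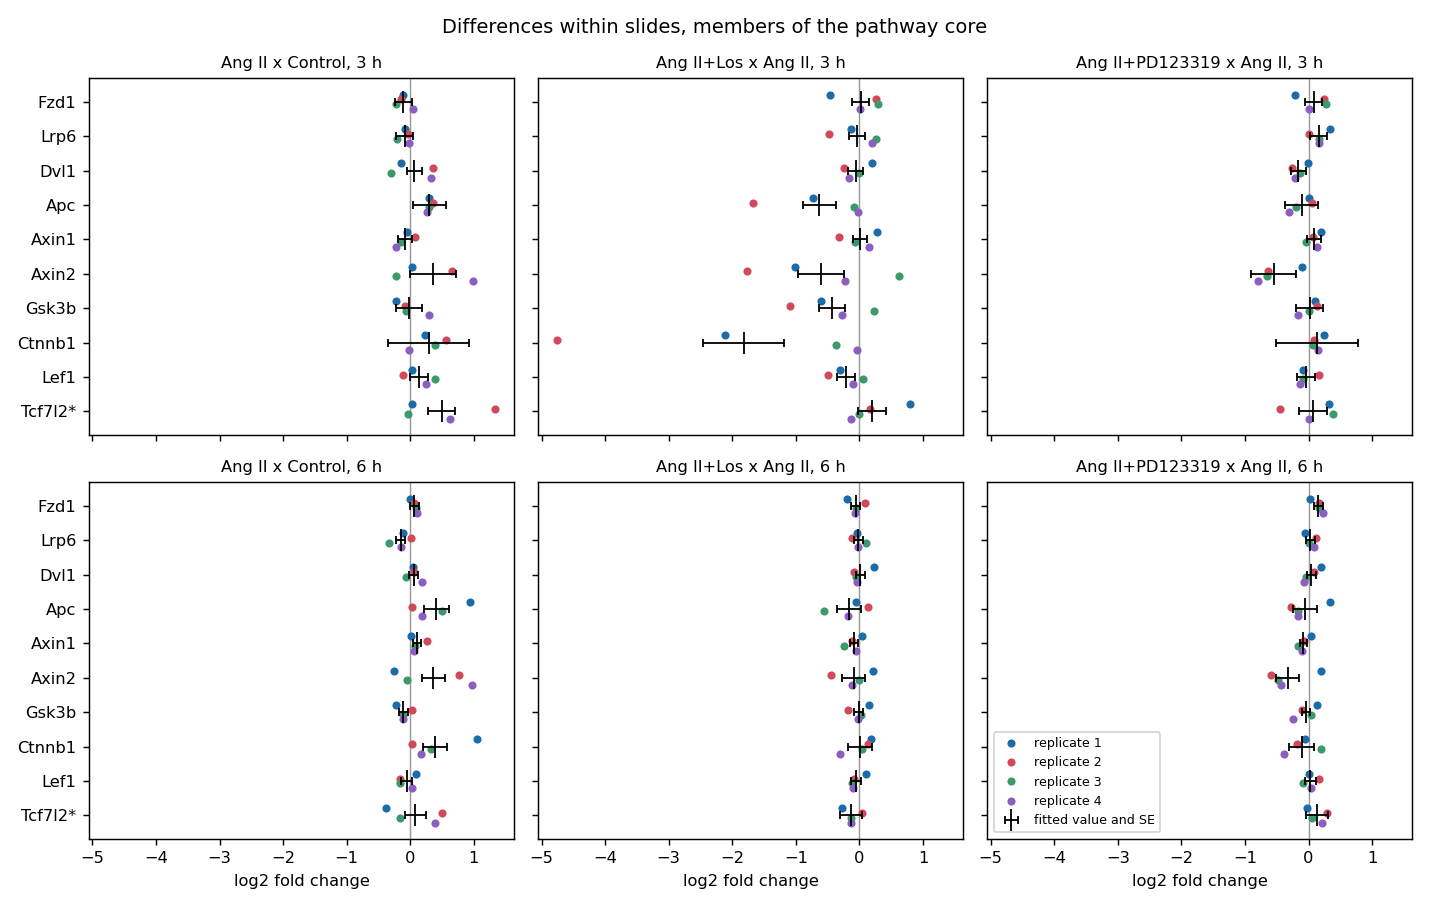
Log2 fold changes of the members in the 3 comparisons at 3 h and 6 h, in the order receptors, adaptor, destruction complex, Ctnnb1 and nuclear partners. Points are the 4 within-slide differences, black vertical marks the limma values and bars their SE, and Tcf7l2 with an asterisk is the probe listed as LOC679869. Ctnnb1, Apc, Axin2, Gsk3b and, less so, Lef1 and Lrp6 spread to the left in the Losartan contrast at 3 h through replicates 1 and 2.

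Ctnnb1 is left out of the counts at 3 h, since its values there are descriptions. Of the other 8 members with a probe by name, 0 were past the limits in the Ang II contrast at 3 h, where 11% of all genes were, and 0 in the PD123319 contrast, where 2.64% were. No call is made for the members in the Losartan contrast at 3 h, where 10.1% of all genes were past the limits. In Ang II+Los x Control at 3 h, 1 of the 8 was, Gsk3b, beside 20% of all genes. For Ang II+Los x Ang II+PD123319 the count was 0 of 8, beside 13.2%, and in Ang II+PD123319 x Control 0 of 8, beside 6.1%. At 6 h, with Ctnnb1 counted, 0 of 9 were past the limits in each of the 6 comparisons. The share of all genes was 11.5% in the Ang II contrast, 0.9% in the Losartan contrast and 3.79% in the PD123319 contrast. It was 11.4% in Ang II+Los x Control, 13.5% in Ang II+PD123319 x Control and 4.17% in Ang II+Los x Ang II+PD123319. The lowest adjusted p of a member in the comparisons that were tested was 0.103, of Fzd1 in Ang II+PD123319 x Control at 6 h. These 6 comparisons of a time share arrays and are not independent.

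The median log2 fold change of the 9 members was 0.06 in the Ang II contrast at 3 h and 0.06 at 6 h, where the median of all genes was 0.00 and -0.01. In the PD123319 contrast it was 0.02 and -0.04. In the Losartan contrast at 3 h, 7 of 9 members were below 0 with a median of -0.21. By slide, 7, 8, 3 and 6 of the 9 were below 0 in replicates 1 to 4, with medians of -0.47, -0.49, 0.05 and -0.04. Between 47.0% and 54.1% of all genes were below 0 on these slides. At 6 h the median of this comparison was -0.05. The change between the times is not read for Ctnnb1, whose 3 h values are descriptions. For each other member it had an adjusted p of 0.714 or more in the Ang II contrast, and of 1 in the PD123319 contrast.

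Across the 16 arrays of 3 h, each centred on its slide, the correlation with Ctnnb1 was 0.96 for Apc, 0.92 for Gsk3b, 0.81 for Lef1, 0.79 for Lrp6 and 0.67 for Axin2. It was 0.44 for Axin1, 0.06 for Fzd1 and -0.05 for Dvl1. The points share slides and are dominated by the 2 low Ang II+Los arrays, so the values are descriptions without a test. Across the 16 arrays of 6 h it was 0.82 for Apc, and between -0.63 and 0.32 for the other members by name. Among 8608 named genes at 3 h, those most like Ctnnb1 were Ywhag, Cnp, Otud1, Ndufa7 and Hnrnpk, at 0.98 or 0.99, and 882 genes were above 0.8. Otud1, which encodes a deubiquitinase, shows the shape: the Losartan contrast was -2.30, -5.38, 0.06 and -0.29. Ndufa7, of mitochondrial complex I, was -1.18, -3.54, -0.16 and 0.08. At 6 h the list was different, with p18, Kpna4, Mpzl1, Cog6 and Ppp2ca at 0.95 to 0.97 and 301 of 10214 genes above 0.8. Ppp2ca encodes a phosphatase catalytic subunit and is among the pathway genes below.

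The other genes of the pathway were taken as 7 lists with 141 genes, of which 129 were matched to the array, 71 were tested at 3 h and 81 at 6 h. In the Ang II contrast at 3 h, 3 of the 71 were higher and 5 lower past the limits, or 11.3%, near the 11% of all genes. The Wnt ligands with their secretion factors, the receptors, the cytoplasmic transducers and the adherens junction partners had 0 genes past the limits there. Cby1, which binds beta-catenin and opposes its nuclear action, was higher by 0.39 ± 0.13 (adjusted p = 0.33), and Ctbp2, a transcriptional corepressor, by 0.28 ± 0.12 (adjusted p = 0.379), in 4 of 4 slides each. Ctbp2 was not past the limits with any 1 replicate left out. Of the 8 genes, 1 stayed past the limits whichever replicate was left out, Sfrp5. Sfrp5, a secreted antagonist that binds Wnt ligands, was at -0.48 on the log2 scale.

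Sfrp5 at 3 h is given in full because it was past the limits in all 3 comparisons. It was dim: well above background on 3 of 4 arrays in each of Control, Ang II and Ang II+Los, and on 4 of 4 in Ang II+PD123319, the group with the highest mean, through which alone it passed the filter. Its differences are therefore given as a description. In Control its mean was 4.34 ± 0.56, in Ang II 3.86 ± 0.59, in Ang II+Los 4.33 ± 0.54 and in Ang II+PD123319 4.39 ± 0.33 (SD, n = 4). Within slides, the Ang II contrast was -0.59, -0.50, -0.31 and -0.54. The Losartan contrast was 0.11, 1.00, 0.24 and 0.54, and the PD123319 contrast was 0.24, 0.51, 0.44 and 0.94. The direction was the same in 4 of 4 slides in each comparison, and all 3 use the Ang II arrays. At 6 h none of the 3 comparisons was past the limits.

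Of the 16 tested transcripts known to respond to beta-catenin, 1 was higher and 3 lower past the limits in the Ang II contrast at 3 h. They were Plaur, the urokinase receptor, at 0.70 ± 0.25, and Myc, Fgf9 and Ccn4, at -0.60 ± 0.20, -0.54 ± 0.21 and -0.33 ± 0.15. In each of the 4 transcripts 1 of the 4 slides went the other way. In the PD123319 contrast at 3 h, 15 of the 16 were below 0, with a median of -0.21 where all genes had -0.02. By slide, between 48.7% and 56.4% of all genes were below 0. The 16 are read on the same arrays and are not independent. In the Ang II contrast, which shares the Ang II arrays, 10 of them were above 0 with a median of 0.19. In Ang II+PD123319 x Control, 8 were above and 8 below 0, with a median of -0.05. In the PD123319 contrast at 6 h, 11 of 16 were below 0, with a median of -0.06. Past the limits in the PD123319 contrast at 3 h were Fosl1, an AP-1 subunit, at -0.41 ± 0.13 and Ppard, a nuclear receptor, at 0.39 ± 0.17 (adjusted p = 1 for both). Tcf7l1, a mostly repressive TCF factor, was higher there by 0.39 ± 0.16, and its value in the Ang II contrast at 3 h was -0.35 ± 0.16. Both contrasts use the Ang II arrays, whose Tcf7l1 mean was 5.78, beside 6.13 in Control and 6.17 in Ang II+PD123319. With 1 replicate left out, 0 of the 4 list genes past the limits in the PD123319 contrast stayed past them throughout. Over all lists 4 of 71 were past the limits in the PD123319 contrast, or 5.63%, beside 2.64% of all genes. The 4 include Sfrp5, which passed the filter only through Ang II+PD123319, so this share is a description.

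Past the limits in the Losartan contrast at 3 h, 2 of the 71 list genes were higher and 7 lower, beside 10.1% of all genes. The higher include Sfrp5 and the lower Bcl9, which each passed the filter through a single group, so these counts are descriptions. In 3 of the lower genes, Id2, Fzd2 and Cdh3, the lowest 2 slides were replicates 1 and 2. Id2, an inhibitor of differentiation factors, was -1.13, -2.75, -0.04 and -0.20, and Fzd2, a Frizzled receptor, was -0.60, -1.40, -0.12 and -0.19. Cdh3 (P-cadherin) was -0.57, -1.01, 0.12 and -0.22, and Snai2, a repressor of cadherin genes, was 0.11, -1.42, -0.57 and -0.52. The nectin listed as Pvrl2 was lower in 4 of 4 slides without that pattern, at -0.35, -0.52, -0.26 and -0.44. So was Bcl9, which links beta-catenin to Pygopus, at -0.21, -0.36, -0.81 and -0.54. Pvrl2 was dim, with a mean of 4.47 in Ang II+Los, where it was well above background on 3 of 4 arrays. Bcl9 was well above background on 4 of 4 arrays in Ang II, the group with its highest mean, through which alone it passed the filter. In Ang II+Los it was so on 2 of 4, and its differences are given as a description. Its partner gene Bcl9l was -0.11, -0.92, -0.18 and -0.33, and the coactivator Ep300 was higher in 4 of 4 slides, at 0.13, 0.70, 0.14 and 0.27. With 1 replicate left out, only 1 of the 9 genes stayed past the limits throughout, Pvrl2. Ep300 was not past them without replicate 2 or 4, nor Bcl9l without replicate 2, 3 or 4.

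At 6 h, 5 of 81 list genes were higher and 1 lower past the limits in the Ang II contrast, or 7.41% beside 11.5% of all genes. Of the adherens junction partners, Ctnnd1 (p120-catenin) was higher by 0.30 ± 0.08 (adjusted p = 0.106) and Vcl (vinculin) by 0.34 ± 0.10 (adjusted p = 0.117), in 4 of 4 slides each. Among the responding transcripts, Met, the hepatocyte growth factor receptor, was higher by 0.44 ± 0.15 (adjusted p = 0.142) and Twist1, a transcription factor of mesenchymal cells, by 0.28 ± 0.07 (adjusted p = 0.101), in 4 of 4 slides each. Plaur was 0.41 ± 0.15, and Ccn4, a secreted matricellular protein, -0.37 ± 0.10 (adjusted p = 0.107). In the Losartan contrast 0 of 81 were past the limits, beside 0.9% of all genes. Over the whole array 327 genes had an unadjusted limma p under 0.05 there, 148 were past the limits and 0 had an adjusted p under 0.05. In the PD123319 contrast, Lrp5, a coreceptor related to Lrp6, was higher by 0.47 ± 0.20 (adjusted p = 0.738). It was not past the limits without replicate 1, at 0.34, or without replicate 3 or 4. Sfrp1, a secreted antagonist, was at -2.94, -0.23, -0.64 and -1.82, or -1.41 ± 0.62 (adjusted p = 0.763), and -0.90 without replicate 1. The -2.94 rests on an Ang II array at 6.05, where the Ang II arrays of replicates 2 to 4 stood at 4.18, 4.52 and 4.31. Sfrp1 was dim, and 1 of its 4 Ang II+PD123319 arrays was not well above background, so the size of its difference is uncertain. It was not past the limits without replicate 3 or replicate 4. In the Ang II contrast at 6 h, Ctnnd1 and Met stayed past the limits whichever replicate was left out, and the other 4 genes did not.

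**Figure D5:**
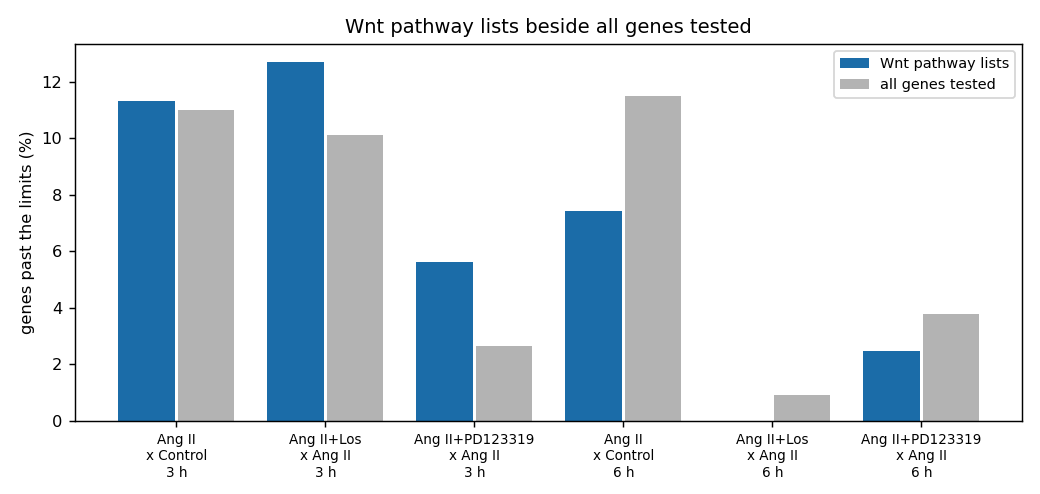
Percentage of genes past the limits among the tested genes of the Wnt pathway lists (71 at 3 h, 81 at 6 h) and among all genes tested, for the 3 comparisons at each time. At 3 h the list share was 11.3%, 12.7% and 5.63% and that of all genes 11%, 10.1% and 2.64%, and the list shares rest on 8, 9 and 4 genes. These include Sfrp5 in all 3 comparisons and Bcl9 in the Losartan contrast, which each passed the filter through a single group.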

How the data were processed

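Total RNA of the 32 samples was labelled with Cy3 and hybridized to Agilent rat 4×44K arrays by the authors, whose methods admitted only RNA above an integrity limit. Per the file headers, the scanner files hold the intensity of each spot, which Feature Extraction 9.5.3.1 had background-subtracted (processed signal), with coordinates on rn4. The authors also deposited log2 values per probe, which equal the log2 of the processed signal within 1e-06 in 100% of 561803 values compared. The limit for a spot to be well above background was set at 2.6 at 3 h and 13 at 6 h, per the file headers.

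From the processed signals, outlier-flagged spots were removed and the spots of each probe averaged. At 3 h a signal not significantly above background was replaced by its error, as the software had done at 6 h. Probes missing on over 2 arrays of a time were removed. The log2 values were normalized by cyclic loess (span 0.7, 3 iterations) among the 16 arrays of a time, so levels are not compared between times. The filter kept probes that were well above background in all 4 replicates of some group, and their mean was taken per gene. limma 3.58.1 in R 4.3.3 was fitted over all genes, blocking on the replicate number, with Benjamini-Hochberg adjustment. The series record calls its t-tests paired. The pairing comes from the shared slide, and the deviations of same-numbered samples correlated at 0.15 to 0.92 at 3 h and 0.55 to 0.83 at 6 h, over 24 pairs each. The change between times was fitted to all 32 arrays.

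The members and lists were chosen with earlier results of these data known. Named are all members, and from each list up to 3 genes per comparison with the largest change past the limits in the same direction in 4 of 4 slides. Where 5 or fewer genes of a list were past the limits, the others were named after their values were seen (Plaur, Myc, Fgf9, Cdh3, Snai2, and Ccn4 and Tcf7l1 in the Ang II contrast at 3 h). Genes like Ctnnb1 are the 5 with the highest Pearson correlation over slide-centred values. Alternatives were no block, 75th percentile scaling, quantile normalization, normexp with an offset of 50, a strict filter and none, each probe alone, the deposited values, the methods' paired t-test, the 8 arrays of a comparison alone and each replicate left out. Replicates 3 and 4 alone at 3 h were added after seeing the data. The limma fit was tested on simulated data. Figures were drawn with matplotlib in Python. The number of arrays limits the precision. The sequence of the Ctnnb1 probe is not reported here.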

Additional observations from a re-analysis of the deposited data

Results flagged for a closer look

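Apc in Control at 6 h was flagged because replicate 1 stood apart from the other 3 arrays of its group. Its log2 signal was 4.95, against 5.97, 6.01 and 6.11, so that the gap took 0.879 of the range of the group, over the critical value for 4 samples. The array enters the 0.94 of replicate 1 in the Ang II contrast for Apc at 6 h, and without that replicate the fitted difference was 0.23 in place of 0.41. In 80 groups of 4 arrays this was the only such array, and chance alone flags about 1 in 20 groups. The low Ang II+Los arrays of Ctnnb1 at 3 h did not reach this limit, since replicates 1 and 2 were both low.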

How the results depend on the processing

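Of 1383 values of the members that were tested under an alternative, 1348 kept their side of the limits, 100 of them with a sign that turned while not past the limits, 6 no longer passed them, all of Gsk3b in Ang II+Los x Control at 3 h, 27 newly passed and 2 reversed. With replicates 3 and 4 alone, chosen after seeing the data, Gsk3b in Ang II+Los x Control at 3 h turned to 0.09 and Axin2 in Ang II+Los x Ang II+PD123319 at 3 h from -0.05 to 0.93. Ctnnb1 in the Losartan contrast at 3 h ran from -2.41 to -0.20, and the deposited values gave none. The count of genes with a change between times at an adjusted p under 0.05 was 0 under each of the 3 settings run, while in the limma fit 7.19%, 5.05% and 1.72% of genes had an unadjusted p under 0.05 in the Ang II, Losartan and PD123319 contrasts. Since 0 of all genes had an adjusted p under 0.05 in that fit, these shares are not read as changes, and no cause was tested. The count of members and list genes past the limits, with Ctnnb1 included as a description, was 8 of 80 in the Ang II contrast, 11 in the Losartan contrast, 4 in the PD123319 contrast, 18 in Ang II+Los x Control, 11 in Ang II+PD123319 x Control and 9 in Ang II+Los x Ang II+PD123319, the contrast of the antagonists, at 3 h. At 6 h, in the same order, it was 6, 0, 2, 3, 3 and 1 of 90. The 11 of the Losartan contrast at 3 h also includes Apc, as a description, since no call is made for members there. Ctnnb1 is also in the 18 and the 9. The shares of all genes, in the same order, were 11%, 10.1%, 2.64%, 20%, 6.1% and 13.2% at 3 h. At 6 h they were 11.5%, 0.9%, 3.79%, 11.4%, 13.5% and 4.17%.

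Counts that moved by over 1.5 times are given in that order of comparisons. The share of all genes past the limits moved with the setting too, so the counts are not read as results about these genes. With no replicate block at 3 h that share was 2.61%, 2.5%, 0.455%, 4.78%, 0.888% and 3.41%. With no replicate block, where the pairing by slide is not used, they were 1, 2, 0, 3, 1 and 2 at 3 h, and at 6 h 3 in the Ang II contrast, 1 in the PD123319 contrast and 0 in Ang II+Los x Control and the contrast of the antagonists. With the methods' paired t-test they were 4 in the Ang II contrast, 2 in the Losartan contrast, 2 in Ang II+Los x Control, 5 in Ang II+PD123319 x Control and 3 in the contrast of the antagonists at 3 h, and at 6 h 3, 0 in the PD123319 contrast, 1 in Ang II+Los x Control and 0 in the contrast of the antagonists. With the 8 arrays alone they were 5 in the Losartan contrast, 10 in the PD123319 contrast and 3 in Ang II+Los x Control at 3 h, then at 6 h 1 in Ang II+Los x Control and 0 in the contrast of the antagonists. With normexp they were 3, 6, 1, 10 and 5 in the first 5 comparisons at 3 h, and 3 in the Ang II contrast and 1 in the PD123319 contrast at 6 h. With quantile normalization they were 13 in the Ang II contrast at 3 h and 8 in Ang II+Los x Control at 6 h. With 75th percentile scaling they were 15 in the contrast of the antagonists at 3 h, and 5, 5, 6 and 2 in the last 4 comparisons at 6 h. With no filter they were 7 in the PD123319 contrast at 3 h, and 2, 7, 6 and 2 in the Losartan contrast, Ang II+Los x Control, Ang II+PD123319 x Control and the contrast of the antagonists at 6 h. With the strict filter 1 remained in the PD123319 contrast at 6 h. With the deposited values they were 7 in the Losartan contrast at 3 h and 8 in Ang II+Los x Control at 6 h. With each probe on its own they were 14 in the contrast of the antagonists at 3 h, and 6 in Ang II+Los x Control and 6 in Ang II+PD123319 x Control at 6 h. With replicates 3 and 4 alone they were 7 in the PD123319 contrast, 5 in Ang II+Los x Control and 4 in the contrast of the antagonists.

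Leaving out 1 replicate gave 3 to 11, 3 to 18, 1 to 8, 4 to 22, 7 to 10 and 4 to 10 at 3 h, and 5 to 13, 0 to 1, 0 to 4, 1 to 11, 4 to 11 and 0 to 4 at 6 h. In the Losartan contrast at 3 h the 3 was without replicate 2 and the 18 without replicate 3. The range of the share of all genes past the limits over these settings was 2.61% to 13% in the Ang II contrast, 0.998% to 13.4% in the Losartan contrast and 0.294% to 5.3% in the PD123319 contrast at 3 h. In the remaining comparisons of 3 h it was 2.43% to 24.9%, 0.888% to 8.81% and 1.59% to 18.8%. At 6 h, in the same order, it was 3.21% to 15.3%, 0.109% to 2.57%, 0.687% to 6.32%, 3.29% to 16.8%, 3.99% to 19% and 0.474% to 6.42%.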
